A study of Mus musculus with 18 samples.

Results

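Testes of ICR mice, an outbred stock, were cultured for 48 h with alginate oligosaccharides (AOS, short sugar chains cut from the alginate of brown seaweed), and the RNA-seq values of testes given AOS at 50 μg/mL (A50, 3 samples) were set against those of testes cultured without AOS (A0, 3 samples). A gene entered when it had at least 1 FPKM (fragments mapped to a gene, scaled to transcript length and to the depth of the library) in at least 3 of these 6 samples, and 15048 of the 22657 genes in the table did. The genes described are the 6268 in which the 3 A50 values lay all above or all below the 3 A0 values, called apart here. They were 41.7% of the genes tested, with 2738 higher in A50 (18.2%) and 3530 lower (23.5%). Because the 2 groups of values chose these genes, their separation is a description and not a test.

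All 6 samples came from mice without busulfan, age-matched to mice injected at 3 weeks of age and sampled 2 weeks later, and the testes were cultured in DMEM/F12 medium with 10% FBS. By the labels A0 carried no AOS and no busulfan, and AOS was the only labelled difference of A50 from it. The other groups of the 18 samples were A10 (AOS at 10 μg/mL) and the 3 groups B0, BA10 and BA50, whose mice had received busulfan, an alkylating agent toxic to spermatogonia, at 40 μg/g body weight, and whose testes were then cultured with 0, 10 or 50 μg/mL AOS. The methods give 6 testes per treatment with 3 repeats, but the labels do not say that the samples of a group came from separate mice or cultures. Unless stated, the p-values and SEs below come from a fit to all 18 samples and rest on the spread within all its groups. That spread may therefore be technical.

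In the seminiferous tubules spermatogonia divide by mitosis, enter meiosis as spermatocytes, and emerge from 2 divisions as round spermatids that elongate into sperm. Sertoli cells nurse them inside the tubule, while Leydig cells, macrophages, vessels and myoid cells lie around it. Pachytene spermatocytes switch on a large set of genes for the later stages, and MYBL1 (A-MYB), a transcription factor of the MYB family, is a known driver of that step. In bulk tissue a lower value can come from fewer cells of a type or from less RNA per cell. Because FPKM is scaled to the library, it can also come from more RNA of other cells. These cannot be told apart here.

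The promoters of 3 of the higher germ cell genes are shown because each holds the letters TAACGG, a form of the MYB site, on one of its strands. They run from 250 bases before the RefSeq start to 50 bases after it in GRCm38.p6, are written 5′ to 3′ on the strand of the gene, and have the site in capitals. Ldhc, the lactate dehydrogenase of the germ line, has its window at chr7:46861013-46861312 on the plus strand. Phf7, a chromatin reader of male germ cells, has its window at chr14:31251266-31251565 on the minus strand. Kif9, a kinesin of the sperm tail, has its window at chr9:110476708-110477007 on the plus strand.
Ldhc: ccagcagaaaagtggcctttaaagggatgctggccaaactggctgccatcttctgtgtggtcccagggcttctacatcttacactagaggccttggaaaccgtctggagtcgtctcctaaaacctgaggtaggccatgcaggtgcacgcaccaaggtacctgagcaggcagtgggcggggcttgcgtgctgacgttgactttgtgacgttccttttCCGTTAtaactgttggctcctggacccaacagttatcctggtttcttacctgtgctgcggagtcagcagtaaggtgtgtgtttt
Phf7: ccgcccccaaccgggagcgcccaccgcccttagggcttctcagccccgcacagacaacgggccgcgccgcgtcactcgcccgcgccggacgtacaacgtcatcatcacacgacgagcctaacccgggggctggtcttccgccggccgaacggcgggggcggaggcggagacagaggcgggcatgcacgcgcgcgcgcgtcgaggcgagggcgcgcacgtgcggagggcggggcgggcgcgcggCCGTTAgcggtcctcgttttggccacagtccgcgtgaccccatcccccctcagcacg
Kif9: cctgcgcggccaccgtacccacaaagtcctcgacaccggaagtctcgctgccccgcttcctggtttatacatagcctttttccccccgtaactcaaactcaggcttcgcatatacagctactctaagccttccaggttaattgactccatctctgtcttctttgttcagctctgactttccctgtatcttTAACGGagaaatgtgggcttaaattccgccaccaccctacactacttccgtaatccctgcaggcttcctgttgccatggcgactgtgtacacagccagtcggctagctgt
Counted from the start as position 0, the first base of the site lay at -34 in Ldhc, at -7 in Phf7 and at -60 in Kif9. In Ldhc and Phf7 the letters read CCGTTA, the same site on the other strand.

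Of the 2603 higher genes with a symbol, 2121 had at least 1 promoter window in the RefSeq table (81.5%), and of the 14215 tested genes with a symbol 11391 did (80.1%). TAACGG, on either strand, stood in the windows of 158 of the 2121 higher genes (7.45%), in 4.46% of the tested genes and in 2.76% of all 32851 windows of the same length. GTTGCC, one arm of the X-box read by RFX factors, stood in 20.5% of the higher genes, in 15.8% of the tested genes and in 12.5% of all windows. CAGTTG, another MYB form, stood in 16.0% and 13.6% (13.7% of all windows), and GGCAGTTG, which contains it, in 2.55% and 1.54% (1.24%). The cAMP response element TGACGTCA stood in 3.63% and 3.33% (1.79%), and the short form TGACGT, which it contains, in 11.4% and 12.2% (7.51%). TATAAA stood in 8.35% of the higher and 9.38% of the tested genes (13.6% of all windows), CCAAT in 45.5% and 43.3% (37.4%), and the GC box GGGCGG in 61.9% and 63.7% (35.7%). The shares of all windows count windows and not genes, so they are not a like measure. Counted per gene over 27025 genes of the RefSeq table, TAACGG stood in 3.15%, GTTGCC in 14.1%, CAGTTG in 15.4% and GGCAGTTG in 1.45%. There TGACGTCA stood in 2.03%, TGACGT in 8.37%, TATAAA in 15.7%, CCAAT in 41.1% and GGGCGG in 38.2%. For the lower genes only 79.4% had a window, below the 80% needed, and that comparison is void. A match is a description of letters, and binding was not measured.

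The FPKM values of the 6 samples summed to between 465989 and 476872, and 14792 to 15040 genes per sample had at least 1 FPKM. The reads behind the values are unknown. Across the tested genes Pearson's r on the log2(FPKM + 1) scale was 0.965 to 0.983 between A0 samples and 0.984 to 0.987 between A50 samples. The library A0 replicate 2 stood apart within its group: it held the lowest A0 value in 2293 of the 2738 higher genes and the highest A0 value in 2712 of the 3530 lower genes. The median SD of a gene was 0.13 on the log2 scale over the A0 samples, 0.09 with A0 replicate 2 left out, and 0.10 over the A50 samples. For the main lists and for named genes that it moved by over 1.5 times, values without this library stand beside the others below. Without it, 2913 genes were apart above and 3745 below.

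No single gene passed the test across replicates. In limma, fitted to the 18 samples on log2(FPKM + 1), 0 genes were called in either direction at an adjusted p of at most 0.001 and a log2 change of 1 or more, and 0 genes (0.0%) had an adjusted p under 0.05, the smallest being 0.102. Before adjustment, 1545 genes with higher (10.3%) and 882 with lower (5.86%) A50 means had p under 0.05, or 545 and 234 without A0 replicate 2. An exact two-sided permutation test over 3 against 3 samples cannot go below 0.1. The differences were mostly small: the median log2 change was 0.38 in the higher genes, with 80% of them between 0.16 and 0.69, and -0.28 in the lower genes, with 80% between -0.53 and -0.15. The median over all genes tested was -0.06. Centring each sample on its median turned the split to 3244 higher and 2590 lower. Changes of at least 1 on the log2 scale were found in 46 higher and 81 lower genes, and all log2 changes below are differences of group means of log2(FPKM + 1), which understate the change of low genes.

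**Figure D1:**
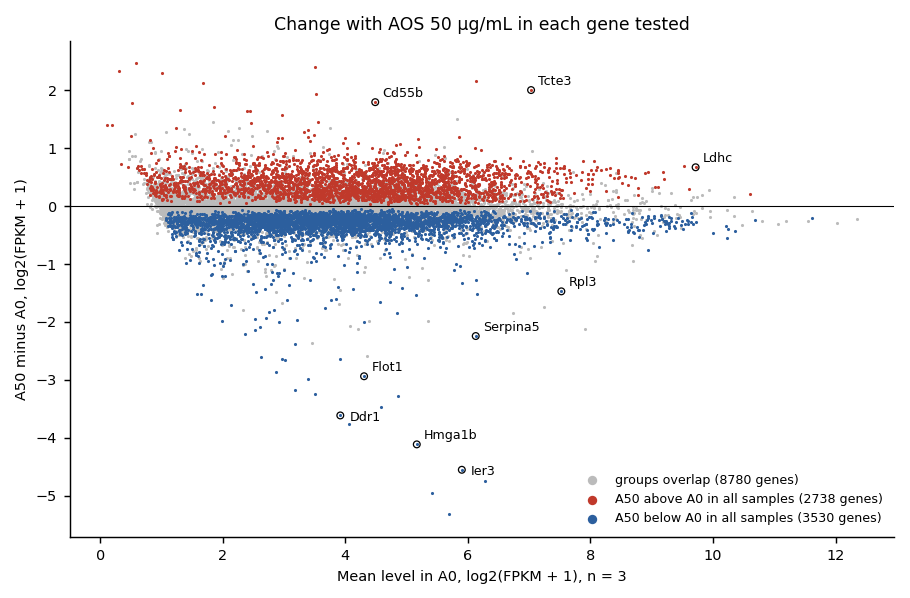
Each point is 1 of the 15048 genes tested, with its mean level in A0 (log2(FPKM + 1), n = 3) on the x axis and the A50 minus A0 difference on the same scale on the y axis. The 2738 red genes had all A50 values above all A0 values, the 3530 blue genes all below, and the grey genes overlapped; large negative differences include Ier3 at -4.55.

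Late spermatocyte genes lay above A0 as a group. Of 20 tested genes of late spermatocytes and the meiotic divisions 16 were apart above A0 (80.0%, against 18.2% over all genes tested) and 0 below. The median log2 change was 0.61, and 14 of the 20 had an unadjusted limma p under 0.05. Without A0 replicate 2 these were 0.44 and 6, with again 16 genes apart. Ccna1, the A-type cyclin of meiosis, stood at 36.58, 20.66 and 39.26 FPKM in the A0 samples and at 56.77, 67.01 and 57.70 FPKM in the A50 samples. Every A50 sample lay well above the highest A0 sample, and the log2 change was 0.94 ± 0.28 (SE, n = 3; limma adjusted p = 0.201). Piwil1, the PIWI protein that carries pachytene piRNAs, had 17.77, 9.13 and 22.06 FPKM in A0 and 31.56, 32.18 and 25.92 FPKM in A50. Its log2 change was 0.91 ± 0.23 (SE, n = 3; limma adjusted p = 0.182), or 0.56 without A0 replicate 2, and the lowest A50 sample exceeded the highest A0 sample by less than 4 FPKM. Tdrd6, a Tudor protein of the germ cell granules, averaged 34.0 ± 8.13 FPKM in A0 and 55.6 ± 4.63 FPKM in A50 (SD, n = 3). The list summed to 1580 to 2430 FPKM in the A0 samples and to 3040 to 3220 FPKM in the A50 samples.

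Ldhc (NCBI gene 16833), whose promoter is shown above, was the second most abundant of the higher genes with a symbol. Its values were 1024.33, 643.69 and 898.50 FPKM in A0 and 1401.76, 1280.81 and 1339.38 FPKM in A50. The A50 samples were close together and A0 replicate 2 was the lowest, and the log2 change of 0.67 ± 0.28 (SE, n = 3; limma adjusted p = 0.278) was 0.48 without that library. Mybl1 itself had 7.96, 5.99 and 9.54 FPKM in A0 and 13.12, 12.27 and 11.29 FPKM in A50, a log2 change of 0.60 ± 0.17 (SE, n = 3; limma adjusted p = 0.201). The 4 genes of the list that overlapped were Pgk2, the germ cell phosphoglycerate kinase, Spag6, Aurkc and Cdc25c, all with a higher mean in A50.

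Meiotic prophase genes followed with a smaller difference. Of 22 tested genes 12 were apart above A0 (54.5%, against 18.2% over all genes tested) and 0 below. The median log2 change was 0.34 (0.27 without A0 replicate 2). Spo11, the enzyme that makes the DNA breaks of meiotic recombination, had 3.94, 2.72 and 6.08 FPKM in A0 and 7.16, 7.67 and 8.89 FPKM in A50. The groups did not meet, with a log2 change of 0.81 ± 0.21 (SE, n = 3; limma adjusted p = 0.199). Syce1, a central element of the synaptonemal complex that zips homologous chromosomes together, had 100.36, 71.37 and 95.31 FPKM in A0 and 136.80, 136.91 and 139.00 FPKM in A50. Sycp3, of the lateral elements, differed little, with 113 ± 3.54 FPKM in A0 and 130 ± 2.63 FPKM in A50 (SD, n = 3). The recombinase gene Dmc1 and the hotspot methyltransferase gene Prdm9, both of early prophase, overlapped between the groups, with log2 changes of -0.10 ± 0.19 and -0.09 ± 0.16 (SE, n = 3).

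Among the haploid stages the count was lower again. Of 24 round spermatid genes 8 were apart above A0 (33.3%, against 18.2% over all genes tested), with a median log2 change of 0.41. Of 22 elongating spermatid genes 1 was (4.55%), with a median of 0.19, though all 22 had a higher mean in A50. Without A0 replicate 2 the medians were 0.25 and 0.01, with 8 and 1 genes apart. Zpbp2, an acrosomal protein that binds the egg coat, had 75.48, 58.35 and 74.36 FPKM in A0 and 113.99, 109.32 and 111.59 FPKM in A50. Crem and Rfx2, regulators of spermatid genes, and Acr, the acrosomal protease, were apart as well, with log2 changes of 0.54, 0.60 and 0.61. Odf2, which builds fibers around the axoneme of sperm, was the elongating spermatid gene that was apart, with 542.01, 338.43 and 411.06 FPKM in A0 and 609.95, 601.99 and 566.68 FPKM in A50.

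The genes that package sperm DNA overlapped between the groups. Prm1, protamine 1, had 1204.60, 679.41 and 905.02 FPKM in A0 and 1014.98, 1182.65 and 936.38 FPKM in A50, so that one A0 sample was above all A50 samples. Its log2 change was 0.20 ± 0.33 (SE, n = 3; limma adjusted p = 0.725), and it was -0.01 without A0 replicate 2. For Prm2, Tnp1, Tnp2 and Odf1 the log2 changes were 0.28, 0.09, 0.07 and 0.09, with SEs of 0.31 to 0.38, and 0.07, -0.06, -0.09 and -0.03 without that library.

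Spermatogonial genes did not share this direction. Of 16 tested genes 0 were apart above A0 and 3 below (18.8%, against 23.5% over all genes tested), with a median log2 change of -0.12 that became 0.01 without A0 replicate 2. The genes apart were Tspan8, a surface protein of undifferentiated spermatogonia, Ret, the GDNF co-receptor, and Uchl1, a deubiquitinase of spermatogonia. Uchl1 had 66.90, 100.08 and 60.88 FPKM in A0 and 55.06, 49.93 and 53.91 FPKM in A50, and its log2 change of -0.48 was -0.27 without A0 replicate 2. Gfra1, which binds GDNF, and Stra8, which marks entry into meiosis, had log2 changes of -0.06 ± 0.26 and 0.14 ± 0.20 (SE, n = 3).

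Genes of cell division were found on both sides. Of 30 tested genes of DNA replication and mitosis 15 were apart above A0 (50.0%) and 4 below (13.3%), against 18.2% and 23.5% over all genes tested. The median log2 change was 0.15 (0.20 without A0 replicate 2, with 17 above and 4 below). Those above were led by Aurka, Plk1 and Ccnb2, which drive entry into and passage through M phase and also serve meiosis. Aurka had 40.37, 32.86 and 41.50 FPKM in A0 and 59.53, 64.63 and 62.43 FPKM in A50, a log2 change of 0.69 ± 0.19 (SE, n = 3; limma adjusted p = 0.199). Those below were Tk1, Pcna, Pola1 and Mcm4, which serve DNA synthesis, with log2 changes from -0.33 to -0.17. Without A0 replicate 2 Tk1 was at -0.21 and Pcna at -0.19. Cdc6, Rrm1 and Mcm7, which serve DNA synthesis too, were apart above, with log2 changes of 0.26, 0.28 and 0.31. Mki67, which marks all cycling cells, had 10.0 FPKM as the mean of both groups.

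**Figure D2:**
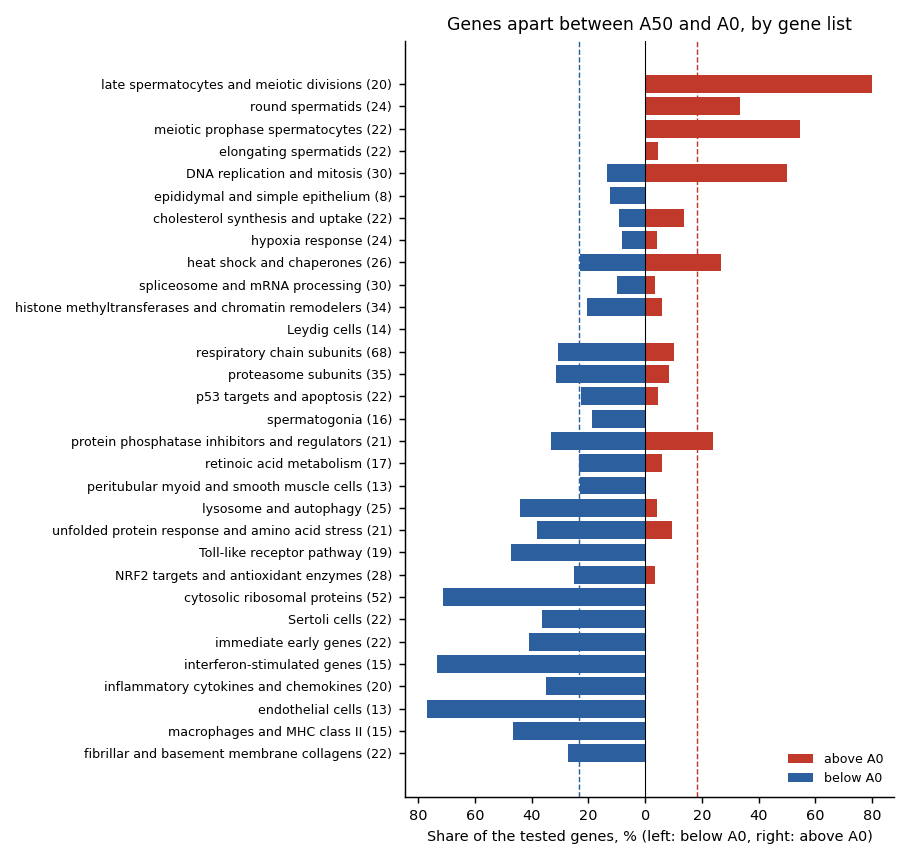
Bars give the share of each list's tested genes (number in brackets) with all A50 values above all A0 values (red, right) or below (blue, left), in percent, for lists with at least 8 tested genes, ordered by their median log2 change. The dashed lines are the shares over all genes tested, 18.2% and 23.5%, and the bar of late spermatocytes (16 of 20) reached farthest right while that of endothelial cells (10 of 13) reached farthest left.

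Endothelial and macrophage genes lay below A0. Of 13 endothelial genes 10 were apart below (76.9%, against 23.5% over all genes tested) and 0 above. The median log2 change was -0.39 (-0.26 and again 10 genes without A0 replicate 2). By limma 2 of the 13 were lower at an unadjusted p under 0.05, as were 5.86% of all genes tested. Cdh5, the cadherin that joins endothelial cells, had 19.62, 30.72 and 23.44 FPKM in A0 and 18.29, 14.69 and 15.94 FPKM in A50. Ly6c1, carried by many endothelial cells, had 135.30, 179.89 and 77.53 FPKM in A0 and 51.81, 41.65 and 77.02 FPKM in A50, where the closest samples differed by under 1 FPKM. The summed level of the endothelial list ranged from 213 to 356 FPKM in A0 and from 150 to 193 FPKM in A50, and no marker of it was at 0.

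Of 15 macrophage and MHC class II genes 7 were apart below (46.7%, against 23.5% over all genes tested) and 0 above. The median log2 change was -0.46 (-0.41 without A0 replicate 2). By limma 2 of the 15 were lower at an unadjusted p under 0.05. C1qa, a chain of complement C1q made by macrophages, had 62.12, 74.90 and 87.62 FPKM in A0 and 51.81, 49.30 and 39.07 FPKM in A50. Csf1r, the receptor that macrophages need to survive, averaged 11.1 ± 1.56 FPKM in A0 and 6.88 ± 1.84 FPKM in A50 (SD, n = 3). The list summed to 823 to 1110 FPKM in A0 and 687 to 744 FPKM in A50. H2-Ab1 overlapped between the groups at up to 2.47 FPKM, and H2-Aa and H2-Eb1 were too low to be tested.

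Interferon and innate sensing genes were lower as well. Of 15 tested interferon-stimulated genes 11 were apart below A0 (73.3%, against 23.5% over all genes tested) and 0 above. The median log2 change was -0.34 (-0.28 and again 11 genes without A0 replicate 2). By limma 1 of the 15 was lower at an unadjusted p under 0.05, as were 5.86% of all genes tested. Ifitm3, which blocks virus entry, had 181.11, 237.39 and 189.58 FPKM in A0 and 149.08, 134.09 and 122.36 FPKM in A50. Ifit3 had 2.04, 2.29 and 1.90 FPKM in A0 and 1.34, 0.73 and 0.39 FPKM in A50, a log2 change of -0.79 ± 0.22 (SE, n = 3; limma adjusted p = 0.199). In the Toll-like receptor pathway 9 of 19 genes (47.4%) were apart below A0 and 0 above, and 3 had an unadjusted limma p under 0.05. Ly96 and Tlr2 of the receptor complexes and Nfkb1, the p105 subunit of NF-κB, were among those apart. Of 20 cytokine and chemokine genes 7 (35.0%) were apart below and 0 above, and 3 had an unadjusted limma p under 0.05. Those below were led by Cxcl2, a neutrophil chemokine with 13.9 ± 1.75 FPKM in A0 and 7.27 ± 1.87 FPKM in A50 (SD, n = 3). Because macrophage and endothelial markers were lower in the same samples, their part in these differences was not tested.

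Immediate early genes, which cells switch on within minutes of a stimulus, were apart below A0 in 9 of 22 and above in 0. The share below was 40.9%, against 23.5% over all genes tested, and 6 of the 22 had an unadjusted limma p under 0.05. Egr1 had 48.85, 54.15 and 43.85 FPKM in A0 and 36.64, 25.38 and 26.66 FPKM in A50. Myc and Ier2 were apart too, with log2 changes of -0.53 and -0.54, whereas Fos overlapped at -0.20 ± 0.27 (SE, n = 3).

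Of the somatic cells of the testis, Sertoli cell genes were apart below A0 in 8 of 22 (36.4%, against 23.5% over all genes tested) and above in 0. The median log2 change was -0.27 (-0.20 and 9 genes without A0 replicate 2). By limma 1 of the 22 was lower at an unadjusted p under 0.05. Aard had 252.14, 292.10 and 204.84 FPKM in A0 and 146.27, 186.91 and 200.39 FPKM in A50. Sox9 and Gata4, transcription factors of the supporting lineage, were apart with log2 changes of -0.27 ± 0.29 and -0.24 ± 0.14 (SE, n = 3), and Wt1 overlapped at -0.07 ± 0.31. None of the 14 tested Leydig cell genes was apart. Insl3, the peptide hormone of Leydig cells, had 307.13, 233.45 and 373.44 FPKM in A0 and 358.92, 290.92 and 552.02 FPKM in A50, and its log2 change of 0.37 was 0.19 without A0 replicate 2. Star, which carries cholesterol into mitochondria for steroid synthesis, averaged 202 ± 21.4 and 200 ± 51.7 FPKM (SD, n = 3). Of 13 myoid and smooth muscle genes 3 were apart below and 0 above, close to the 23.5% below over all genes, and without A0 replicate 2 the counts were 3 below and 4 above.

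The fibrillar collagens had large mean differences without being apart. Col1a1, the main chain of type I collagen, had 154.14, 273.36 and 170.60 FPKM in A0 and 174.56, 85.83 and 46.69 FPKM in A50, a log2 change of -1.11 ± 0.59 (SE, n = 3; limma adjusted p = 0.344). The A50 samples spread almost 4-fold, with A50 replicate 1 among the A0 values, and Col3a1 and Dcn were ordered in the same way. The collagen and matrix genes that were apart numbered 6 of 22 (27.3%, against 23.5% below over all genes tested) and were below A0, among them Lamb1 and Nid1 of basement membranes and Sparc, a collagen-binding protein with 1220 ± 187 FPKM in A0 and 919 ± 79.1 FPKM in A50 (SD, n = 3).

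Lists of cell types from outside the tubules and interstitium differed in level. Only 1 of 10 lymphocyte genes found in the table passed the filter, Cd3d, and the list summed to 3.31 to 5.85 FPKM in A0 and 3.88 to 5.31 FPKM in A50. Of the erythrocyte list 3 genes were tested and 1, Alas2, was apart below. Of the adipocyte list 1 of 4 was apart below, and the only tested skeletal muscle gene, Mylpf, overlapped. In the epithelial list Lcn2, a siderophore-binding protein also made in inflamed tissue, was apart below at 1162.03, 1329.99 and 1102.75 FPKM in A0 and 705.23, 719.38 and 1060.84 FPKM in A50, and it made up most of the list's sum, while Lcn5, a lipocalin of the epididymis, was listed at 0 in all 6 samples.

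**Figure D3:**
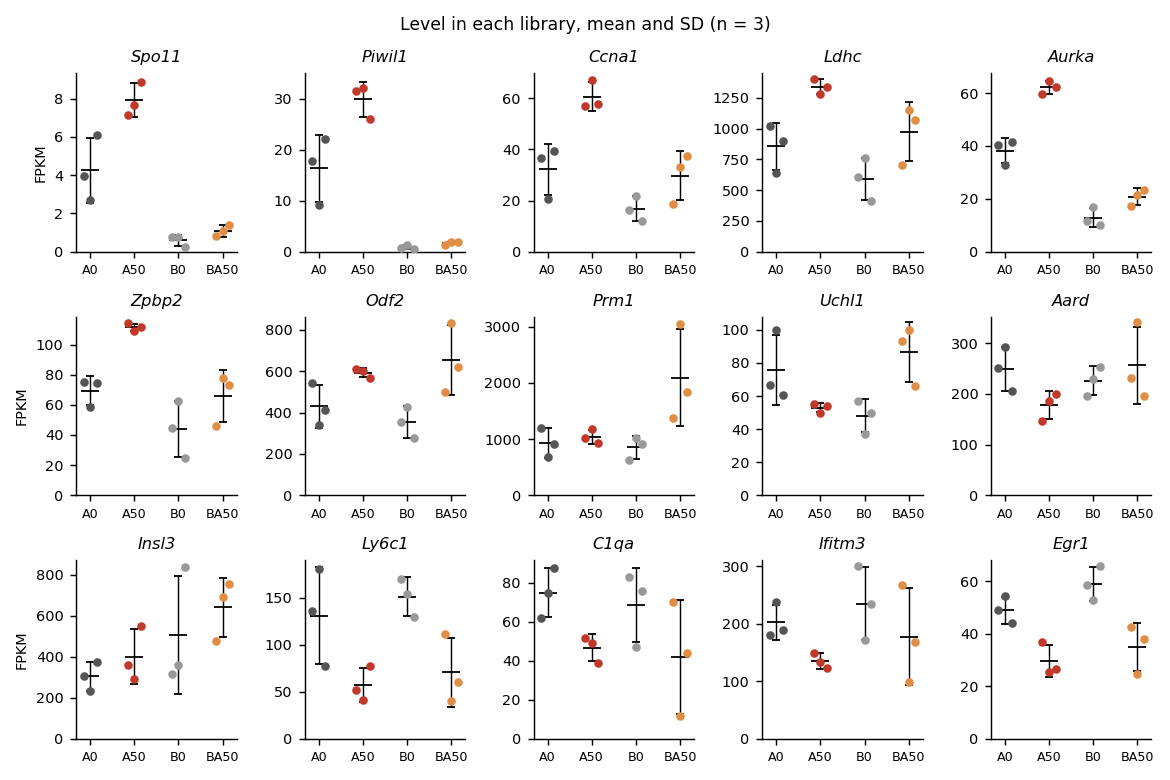
Each panel gives the FPKM of 1 gene in the 3 libraries of A0, A50, B0 and BA50 (points), with the mean and SD (n = 3) as bar and whiskers and y axes starting at 0. The A50 points lie above the A0 points for Spo11 to Odf2 and below them for Uchl1, Aard, Ly6c1, C1qa, Ifitm3 and Egr1, and the points overlap for Prm1 and Insl3.

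Cytosolic ribosomal protein genes were lower together by a small amount. Of 52 tested genes 37 were apart below A0 (71.2%, against 23.5% over all genes tested) and 0 above. The median log2 change was -0.26 and stayed between -0.25 and -0.20 under the 3 other scalings. By limma 6 of the 52 were lower at an unadjusted p under 0.05, and 0 without A0 replicate 2. Rps4x had 494.55, 573.59 and 496.82 FPKM in A0 and 427.95, 348.25 and 362.20 FPKM in A50. Eef1a1, the elongation factor that brings aminoacyl-tRNA to the ribosome, was the most abundant of the lower genes, with 3130 ± 253 FPKM in A0 and 2730 ± 164 FPKM in A50 (SD, n = 3), and its log2 change of -0.20 was -0.13 without A0 replicate 2. Tpt1 (1640 ± 126 and 1400 ± 66.7 FPKM, SD, n = 3) and the actin-binding gene Tmsb4x (1320 ± 128 and 975 ± 48.1 FPKM, SD, n = 3) were next.

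Among other abundant genes, Ubb, which encodes polyubiquitin, had the highest level of the higher genes, with 1550 ± 112 FPKM in A0 and 1790 ± 45.1 FPKM in A50 (SD, n = 3). Meig1, needed for the sperm flagellum, had 896.36, 555.62 and 796.23 FPKM in A0 and 1189.51, 1127.81 and 1241.24 FPKM in A50. Pabpc1, Fabp9 and Gstm5 followed, with log2 changes of 0.30, 0.58 and 0.47, the last of which was 0.31 without A0 replicate 2.

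Lists of stress and housekeeping pathways held genes on both sides, where 18.2% of all genes tested were apart above and 23.5% below. The heat shock list had 26.9% above and 23.1% below, the respiratory chain list 10.3% and 30.9%, and the proteasome list 8.57% and 31.4%. Heat shock genes were apart above in 7 of 26 and below in 6. Hspa2, Hspa4l and Tcp1 led those above, and Hspa2, the chaperone of spermatocytes, averaged 153 ± 31.6 FPKM in A0 and 241 ± 11.8 FPKM in A50 (SD, n = 3). Respiratory chain subunits were apart above in 7 of 68 and below in 21, and Cox6b2, the testis form of a complex IV subunit, led those above with 99.2 ± 21.2 and 140 ± 8.54 FPKM (SD, n = 3). Proteasome subunits were apart above in 3 of 35 and below in 11, and the testis subunit Psma8 led those above with a log2 change of 0.67 ± 0.25 (SE, n = 3).

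Of the other lists, lysosome and autophagy genes were apart above in 1 and below in 11 of 25, unfolded protein response genes in 2 and 8 of 21, NRF2 targets in 1 and 7 of 28, p53 targets in 1 and 5 of 22, and hypoxia genes in 1 and 2 of 24. Cholesterol synthesis genes were apart above in 3 and below in 2 of 22 (5 and 2 without A0 replicate 2), retinoic acid genes in 1 and 4 of 17, spliceosome genes in 1 and 3 of 30 (2 and 3 without that library), chromatin remodelers in 2 and 7 of 34 (3 and 7), and phosphatase regulators in 5 and 7 of 21. Over all genes tested 18.2% were apart above and 23.5% below. The share below exceeded this in the lysosome, unfolded protein response (38.1%) and phosphatase (33.3%) lists. It was near 23.5% in the NRF2, p53 (22.7%), retinoic acid (23.5%) and chromatin (20.6%) lists. In the hypoxia (8.33%), cholesterol (9.09%) and spliceosome lists it was lower. Rdh11, a retinal reductase, was the higher retinoic acid gene and had 56.35, 45.05 and 56.02 FPKM in A0 and 74.98, 73.61 and 74.03 FPKM in A50. Txn1, thioredoxin, led the lower NRF2 targets with 184 ± 37.4 FPKM in A0 and 122 ± 9.45 FPKM in A50 (SD, n = 3).

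The X chromosome, which is silenced in spermatocytes from pachytene on, had few higher genes. Of 670 tested X-linked genes 25 were apart above A0 (3.73%) and 203 below (30.3%), while on the autosomes 19.0% of 13480 genes were above and 23.9% below. Without A0 replicate 2 the X-linked shares were 4.63% and 31.0%, and the autosomal shares 20.1% and 25.3%. Over the single autosomes the share above ranged from 16.1% on chromosome 13 to 22.5% on chromosome 5. Most of the 25 X-linked genes above A0 were low, and several belong to multicopy families of the germ line (Rhox3, Ssxb, Cldn34b) whose reads can be split between copies. Gm10486, among the highest of them, had 11.66, 5.52 and 6.25 FPKM in A0 and 13.57, 15.37 and 11.94 FPKM in A50. On the Y chromosome 12 of 65 genes were above (18.5%, near the 18.2% over all genes tested) and 6 below (9.23%).

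Among genes with a symbol, those with the smallest unadjusted limma p were 3 above A0 and 3 below. Gtf2h1, a subunit of the repair and transcription factor TFIIH, had 53.07, 44.42 and 53.37 FPKM in A0 and 68.04, 68.73 and 66.82 FPKM in A50, with a log2 change of 0.43 ± 0.08 (SE, n = 3; limma adjusted p = 0.143). Cdca8, of the chromosomal passenger complex, and Dnaaf4, which helps assemble ciliary dynein, were also above with adjusted p = 0.143. Flot1, Serpina5 and Dnajc19 had the smallest p of the genes below, with log2 changes of -2.94, -2.24 and -0.41. Serpina5, a serine protease inhibitor, had 76.72, 91.54 and 46.59 FPKM in A0 and 10.20, 9.55 and 26.28 FPKM in A50, a log2 change of -2.24 ± 0.39 (SE, n = 3; limma adjusted p = 0.143) that was -2.04 without A0 replicate 2.

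The largest negative differences did not spread evenly over the genome. Of the 127 genes apart by 1 or more on the log2 scale, 25 lay on chromosome 17, and 12 of the 81 that were lower lay in 1 stretch of it, from Ddr1 to Znrd1as, that holds the MHC class I genes H2-T23 and H2-T22. This stretch was chosen after the values were seen. Of its 27 tested genes 17 were apart below A0 (63.0%) and 3 above, while on the rest of chromosome 17 23.7% of 668 genes were below. Ier3, an early response gene, had 57.64, 119.56 and 29.19 FPKM in A0 and 2.59, 1.48 and 0.85 FPKM in A50. Every A50 sample was at least 10-fold below the lowest A0 sample, and the log2 change was -4.55 ± 1.06 (SE, n = 3; limma adjusted p = 0.161), or -4.05 without A0 replicate 2. Ddr1, a collagen receptor, had 11.61, 33.60 and 6.91 FPKM in A0 and 0.27, 0.20 and 0.23 FPKM in A50.

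Neighbours in the stretch differed in direction. Flot1, a membrane scaffold protein, Abcf1 and Gnl1 had log2 changes of -2.94, -2.64 and -1.99, while Atat1 and Mrps18b, which lie between Flot1 and Abcf1, overlapped with log2 changes of -0.15 and 0.02. H2-T10 was apart above, with 9.39, 2.06 and 14.04 FPKM in A0 and 14.94, 18.14 and 17.16 FPKM in A50, and as a member of a family of near-identical genes its value is uncertain. Outside A50 the lowest values of Ier3 were 9.89 FPKM in A10 replicate 1, 17.19 FPKM in B0 replicate 3 and 18.66 FPKM in BA10 replicate 1, all above the highest A50 value. The other A10 and B0 samples had 30.99 to 238.00 FPKM. This did not hold for every gene of the stretch. In B0 replicate 3, cultured without AOS, Mdc1 had 0.97 FPKM and Prr3 had 1.82 FPKM. Their lowest A50 values were 1.54 and 2.11 FPKM. Ddr1, Flot1 and Abcf1, at 1.33, 5.88 and 1.87 FPKM in that library, were above all their A50 values. Low values in the stretch were thus not limited to A50. In the busulfan groups Ier3, Flot1 and Ddr1 had log2 changes of 0.33 ± 1.06, 0.00 ± 0.51 and 0.77 ± 0.84 in BA50 compared to B0 (SE, n = 3).

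**Figure D4:**
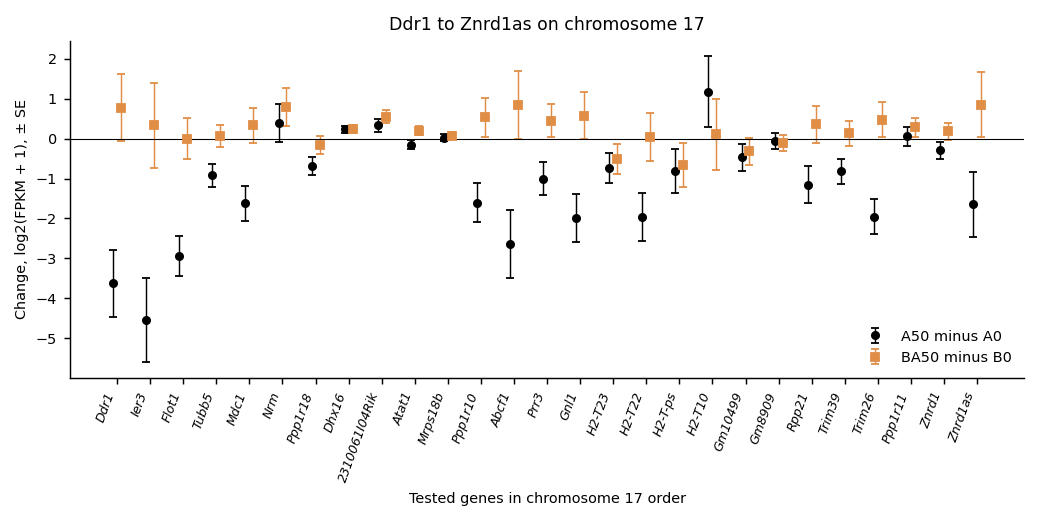
The 27 tested genes of the stretch are set in their order on chromosome 17, with the log2(FPKM + 1) difference ± SE (n = 3 per group) of A50 minus A0 as black circles and of BA50 minus B0 as orange squares. The A50 changes reach from -4.55 in Ier3 to 1.18 in H2-T10, while the BA50 changes stay between -0.67 and 0.85.

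A second set of large negative differences followed single libraries. Hmga1b, a copy of the chromatin protein gene Hmga1, had 9.32, 137.44 and 31.42 FPKM in A0 and 2.34, 0.85 and 0.44 FPKM in A50, with A0 replicate 2 alone above 100. Over the 18 samples 31 genes, Hmga1b included, had r above 0.9 with it. The A0 and A50 values entered that choice and Hmga1b is itself apart below, so the direction of these genes follows from the choice. Of the 31 genes 29 were apart below A0 and 0 above, against 23.5% and 18.2% of all genes tested. Their mean log2 level was 4.92 in A0 replicate 2, 4.77 in A10 replicate 3, 4.77 in B0 replicate 1 and 4.83 in BA50 replicate 1. It was 2.31 and 3.19 in the other A0 samples, 1.13 to 1.30 in the A50 samples and 1.07 to 2.65 in the remaining 9.

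These genes had varied roles, and some of them lay near each other. They included Pgd of the pentose phosphate pathway, Eno1 of glycolysis, Ahcy of the methyl cycle, Hspa1a, and the ribosomal protein genes Rpl3 and Rps2. On chromosome 6 Ints13, Fgfr1op2, Stk38l, Smco2 and Ppfibp1 are close together, on chromosome 4 Pgd, Ube4b and Eno1 are, and 9 of the 31 were gene models of the sequencing provider without a symbol. In the 30 genes with at least 5 FPKM in A0 replicate 2, A0 replicate 3 held 25.1% of that level (median, quartiles 22.5% and 31.3%) and A0 replicate 1 held 11.9% (6.86% and 20.4%). Without A0 replicate 2 the log2 changes of Rps2, Eno1 and Hspa1a went from -1.84, -1.54 and -2.14 to -0.99, -0.72 and -1.29. Pgd had 6.35, 107.98 and 30.03 FPKM in A0 and 3.40, 1.57 and 1.41 FPKM in A50. Acadl, of fatty acid oxidation, is not among the 31 genes and was listed at 0 in A10 replicate 3. It had 1.32, 25.86 and 5.30 FPKM in A0 and was listed at 0 in 2 of the A50 samples and at 0.03 FPKM in the other.

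**Figure D5:**
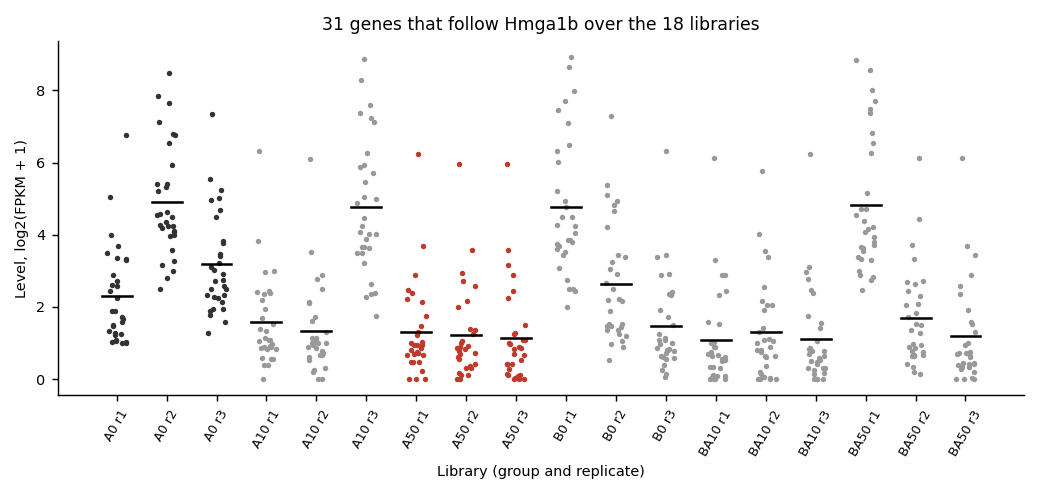
Each point is 1 of the 31 genes that follow Hmga1b, in 1 of the 18 libraries (group and replicate number on the x axis), on the log2(FPKM + 1) scale, with the mean as a bar. The means are 4.77 to 4.92 in A0 replicate 2, A10 replicate 3, B0 replicate 1 and BA50 replicate 1, and 1.13 to 1.30 in the 3 A50 libraries.

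Among the genes with a symbol, the largest positive differences had the reverse shape. Tcte3, a dynein light chain gene with close copies, had 243.94, 35.13 and 251.91 FPKM in A0 and 515.35, 513.38 and 546.17 FPKM in A50, and its log2 change of 2.01 ± 1.08 (SE, n = 3; limma adjusted p = 0.348) was 1.08 without A0 replicate 2. Cd55b, a complement regulator of the testis, had 32.45, 6.32 and 45.16 FPKM in A0 and 82.41, 72.63 and 76.41 FPKM in A50. In all 12 of the largest positive differences A0 replicate 2 was the lowest of the 6 samples. The others were Gm21586, Gm20878, Gm20827, Ccl27b, H2-T10, Galntl6, Tmem30c, Tmed6, Prss45 and Mark1-ps2, and those with near-identical copies are uncertain. Without A0 replicate 2 the log2 changes of these 10 were 0.43 to 0.91, and that of Cd55b went from 1.80 to 0.99.

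At the limit of the rule, Rbm3 (104.61 FPKM as the lowest A0 value and 104.58 FPKM as the highest A50 value) and Csnk1a1 were just inside, and Necap2 and Cdkn2c, each with a value shared by both groups, were just outside.

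The same concentration of AOS was also given to testes of busulfan-treated mice, which share no sample with A0 and A50. Over all genes tested, the 3 BA50 values lay above the 3 B0 values in 1728 genes (11.5%) and below in 2038 (13.5%). Of the 2738 genes higher in A50, 704 were apart above B0 in BA50 (25.7%) and 77 below (2.81%). Of the 3530 genes lower in A50, 726 were apart below B0 (20.6%) and 34 above (0.963%). The BA50 mean was above the B0 mean in 84.9% of the A50-higher genes, in 16.2% of the A50-lower genes and in 44.8% of all genes tested. The median BA50 change was 0.29 in the former, -0.18 in the latter and -0.04 over all, on the log2 scale. B0 replicate 1 and BA50 replicate 1 are libraries with the pattern of Hmga1b, and A0 replicate 2 and A10 replicate 3 are the others. Without these 4 libraries, where 2 B0 and 2 BA50 samples were left to separate, 27.6% of all genes tested were apart above B0 and 32.9% below. Of the genes apart above A0 there 1900 were apart above B0 (65.2%), and of those below 2007 were apart below (53.6%).

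The germ cell lists and the lists lower in A50 gave these values in the 2 settings. The difference between the settings was not tested for a list. In BA50 compared to B0, 21 of 22 elongating spermatid genes were apart above, with a median log2 change of 1.03, against 1 of 22 and 0.19 in A50 compared to A0. Prm1 had a log2 change of 1.25 there and 0.20 in A50. In the late spermatocyte list 9 of 20 were apart above in BA50, with a median of 0.53. The round spermatid list had 12 of 24 above, and the meiotic prophase list 4 of 22 above and 2 below. Of the lists lower in A50, the endothelial one had 9 of 13 genes apart below B0 in BA50, where 13.5% of all genes tested were. The cytokine list had 6 of 20 below, the immediate early list 6 of 22 and the Toll-like receptor list 4 of 19. The Sertoli list had 2 of 22, the interferon list 2 of 15, the macrophage list 1 of 15 and the ribosomal list 3 of 52. The difference between the AOS changes with and without busulfan was tested by limma as an interaction: 0 genes passed an adjusted p of 0.05, 936 had an unadjusted p under 0.05, and the smallest adjusted p was 0.269.

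Some single genes had the same direction in both settings with a like size. Kdm4d, a histone demethylase of the testis, had 14.60, 10.16 and 13.49 FPKM in A0, 22.68, 24.03 and 23.61 FPKM in A50, 4.84, 6.28 and 3.06 FPKM in B0, and 6.61, 10.03 and 11.14 FPKM in BA50. Its log2 changes were 0.84 ± 0.22 and 0.85 ± 0.22 (SE, n = 3). Pbp2, Smpd5 and Il4i1b were the others with the largest positive difference in both. Serpina5 had the largest shared negative difference, with 59.37, 76.32 and 86.57 FPKM in B0, 17.13, 14.28 and 15.92 FPKM in BA50, and a log2 change of -2.15 ± 0.39 (SE, n = 3; limma adjusted p = 0.0999). Ly6c1, Itih3 and Sprr1a followed. On the X chromosome 4.63% of the genes were apart above B0 in BA50 and 19.1% below, against 1616 and 1848 of the 13480 autosomal genes (13.7% below).

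At 10 μg/mL AOS, a comparison that shares the A0 samples, the values of the leading genes can only be set side by side. Ccna1 had 36.00, 46.22 and 54.61 FPKM in A10, Piwil1 had 27.27, 27.36 and 26.72 FPKM, Aurka had 42.53, 47.86 and 60.56 FPKM, and Ldhc had 1012.43, 1075.75 and 1827.77 FPKM. A10 replicate 3, a library with the pattern of Hmga1b, was the highest of the 3 for Ccna1, Aurka and Ldhc. Serpina5 had 40.79, 18.58 and 17.28 FPKM. The log2 changes from A0 were 0.52, 0.78, 0.38, 0.58 and -1.51 in that order, and 0.94, 0.91, 0.69, 0.67 and -2.24 at 50 μg/mL.

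The longest transcript of a gene had a median length of 3085 bases in the higher genes, 3246 in the lower and 3196 in all tested genes, and a median GC content of 48.6%, 50.6% and 49.5%. These were found for 93.6%, 96.9% and 93.0% of the genes.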

How the data were processed

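Libraries made from oligo(dT)-enriched testis RNA were read on an Illumina sequencer, and the authors deposited 1 FPKM value per gene and sample. The supplementary methods name SOAPaligner and RPKM, whereas the submitters' processing notes name HISAT, Bowtie2, RSEM and GRCm38.p5, and which of these made the deposited table is not given in the sources used here. The AOS concentration was taken from the sample labels in μg/mL, whereas the series' design text gives the same doses per kg body weight. Reads per sample are unknown, so precision was judged from the 3 samples of a group. All 18 sample columns were matched to labels, with 0 left over.

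The members and lists were chosen with earlier results of these data known. From the deposited FPKM, log2(FPKM + 1) was tested with limma 3.58.1 in R 4.3.3 (18 samples, 1 coefficient per group, eBayes with trend, 12 residual and 2.58 prior degrees of freedom, Benjamini-Hochberg adjustment), and the fit was tested on simulated data. Named genes were the 12 largest changes and the 6 highest levels per direction, the top 3 per list and direction (the 2 highest where none was apart), the limit of the rule, the 3 smallest p and the 4 largest shared changes per direction, and Prm1, Prm2, Tnp1, Tnp2 and Odf1. The genes of the chromosome 17 stretch and of the Hmga1b pattern, further list members and promoters were chosen after their values were seen. Symbols and promoters came from RefSeq (GRCm38.p6) and transcripts from GENCODE. Alternatives were other filters, scalings, pseudocounts, sample sets and a replicate block. Python 3.11.15, pandas 2.3.3, NumPy 2.4.6 and matplotlib 3.10.9 were used.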

Additional observations from a re-analysis of the deposited data

Results flagged for a closer look

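In 3 of the named genes the A50 samples lay all on one side of A0 while the BA50 samples lay all on the other side of B0. Haspin, a histone H3 kinase of germ cells, had a log2 change of -2.38 in A50 compared to A0 and of 3.44 in BA50 compared to B0. Its values were 8.06, 15.63 and 3.98 FPKM in A0, 0.37, 0.51 and 1.57 FPKM in A50, 0.31, 0.49 and 0.15 FPKM in B0, and 1.30, 38.17 and 30.98 FPKM in BA50. Uchl1 had log2 changes of -0.48 in A50 and 0.83 in BA50, and Sf3b1, of the spliceosome, of 0.17 and -0.27. Without A0 replicate 2 the A50 change of Uchl1 was -0.27. The limma interaction test did not pass the threshold for any of the 3, with adjusted p of 0.628 for Haspin, 0.543 for Uchl1 and 0.670 for Sf3b1.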

How the results depend on the processing

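Most named genes were chosen as apart, so leaving out A0 or A50 samples could not reverse their direction. The other filters, the fits of fewer groups, eBayes without trend and the replicate block leave the difference of group means unaltered. Much of the agreement in direction was thus fixed in advance. Of 2858 log2 changes of 169 named genes under 17 alternatives, 2842 kept their direction and none passed an adjusted p of 0.05. The 16 that reversed were of genes near 0: Mylpf (0.04 with quantile normalization, 0.01 with median centring, 0.02 and 0.03 without A0 replicate 3 or A50 replicate 3), Cd3d (-0.09), Prm1 (-0.01), Tnp1 (-0.06), Tnp2 (-0.09) and Odf1 (-0.03) without A0 replicate 2 alone or with the 3 other libraries of the Hmga1b pattern (an alternative chosen after seeing the data), Odf1 (-0.05) without A0 replicate 3, and Tnp1 (-0.01) without A50 replicate 2. At the other end of the leave-one-out ranges, Mylpf was at -0.08 without A50 replicate 2, and without A0 replicate 1 Cd3d was at 0.35, Prm1 at 0.41, Tnp1 at 0.26, Tnp2 at 0.26 and Odf1 at 0.35. Genes with an adjusted p under 0.05 in A50 numbered 0 as reported, 3 without a filter, 1 with median centring, 1 in the fit of 6 samples and 5 without the 4 libraries. The interaction had 1 without a filter and 0 as reported. At an unadjusted p under 0.05 the fit of 6 samples gave 2333 higher and 2752 lower genes. Leaving out 1 replicate at a time gave 2913 to 4161 genes apart above and 3745 to 5301 below (most without A0 replicate 1), and 545 to 1648 higher and 234 to 997 lower genes at an unadjusted p under 0.05. The fewest came without A0 replicate 2, and A50 replicates 1 and 2 also lowered these counts by over 1.5 times, to 1014 and 572 and to 955 and 499. Genes apart in both settings numbered 724 to 1772 above and 775 to 1771 below, with 1550 and 1302 without B0 replicate 2 and the most without BA50 replicate 1.

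The deviations of same-numbered samples correlated at 0.14, -0.07 and -0.13 between A0 and A50 and at 0.55, 0.43 and 0.09 between B0 and BA50, and since not every pair was above 0.1 the samples were taken to share only a number. With the replicate block 1418 higher and 868 lower genes had an unadjusted p under 0.05 and 0 an adjusted p under 0.05, and no call of the counts was altered. Genes apart in both settings numbered 704 and 726 as reported and 1900 and 2007 without the 4 libraries, where fewer samples had to be separated. Unknown read depth, 3 samples per group, 1 library (A0 replicate 2) that often held the extreme A0 value, and uncertain multicopy genes limit these results.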
